A study of Mus musculus with 20 samples.

Results

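The annexins Anxa1, Anxa2, Anxa3, Anxa4, Anxa5, Anxa6, Anxa7 and Anxa11, and S100a10, the partner protein of annexin A2, were followed across both brain regions, cerebellum and forebrain, in wild-type and knock-in mice. Every probe set that the array annotation gives to 1 of these 9 genes alone was taken. That gave 16 probe sets for 8 of the 9 genes, out of 22626 probe sets on the array without its controls. Anxa11 is named only on a probe set that names 3 genes, so no value is given for it. The genes were chosen with knock-in against wild-type results of these same arrays known. Their genotype differences are therefore given as a description. Where one passed the threshold in the fit over all probe sets, this is stated but not read as support. For these genes only the wild-type comparisons of region and age are read as tests.

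Total RNA was measured on 20 single-channel arrays. Each of the 4 combinations of genotype (knock-in or wild type) and region has 3 arrays from mice of 4 weeks and 2 from the later age, given as 11 weeks by the descriptions (used here) and 12 by the titles. Neither the allele knocked in nor the strain nor the number of animals is stated, so the spread between arrays may be technical. For 7 of the 10 forebrain arrays the source field and the opening of the title name cerebellum, and the description of 1 (the third knock-in array of forebrain at 4 weeks) does so too. The summed intensity of the granule neuron markers was 267000 to 348800 on the arrays grouped as cerebellum and 10540 to 12060 on those grouped as forebrain, where the arrays in doubt lay with the others. Median intensity per array was 979 to 1180.

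Annexins are calcium-dependent proteins that bind acidic phospholipids on the inner face of membranes, where they take part in vesicle traffic, membrane repair and the organisation of the cell cortex. Annexin A2 forms a heterotetramer with a dimer of S100a10 (p11), which carries ion channels and receptors to the plasma membrane and, at the cell surface, binds plasminogen and its activator. Annexin A1 is an anti-inflammatory protein that glucocorticoids induce and that signals through formyl peptide receptors. Annexin A5 binds exposed phosphatidylserine, annexin A6 acts in endosomes and cholesterol traffic, and annexins A7 and A11 bind penta-EF-hand proteins. In brain, annexins are often more abundant in glia, vessels and meninges than in neurons. The arrays are of bulk tissue, so fewer cells of a type and less RNA per cell cannot be told apart.

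The RefSeq promoter table, on the GRCm38.p6 assembly, held 8 windows for 6 of the 9 genes. Among the annexins and S100a10, Anxa2 had the largest genotype difference in cerebellum at 4 weeks, and Anxa5 differed less there. Anxa1 is the glucocorticoid-induced member. For these 3 genes the 250 bases upstream of the start site are shown. They are written 5′ to 3′ on the gene's strand, and capitals mark the motifs found. The windows lie at chr9:69453433-69453682 (plus strand) for Anxa2, chr3:36475888-36476137 (minus strand) for Anxa5 and chr19:20390672-20390921 (minus strand) for Anxa1.

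Anxa2: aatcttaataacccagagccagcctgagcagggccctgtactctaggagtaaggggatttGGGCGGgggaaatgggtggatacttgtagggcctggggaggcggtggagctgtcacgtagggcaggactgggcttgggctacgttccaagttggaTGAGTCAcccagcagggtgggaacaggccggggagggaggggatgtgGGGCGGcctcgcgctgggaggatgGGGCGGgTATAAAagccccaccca
Anxa5: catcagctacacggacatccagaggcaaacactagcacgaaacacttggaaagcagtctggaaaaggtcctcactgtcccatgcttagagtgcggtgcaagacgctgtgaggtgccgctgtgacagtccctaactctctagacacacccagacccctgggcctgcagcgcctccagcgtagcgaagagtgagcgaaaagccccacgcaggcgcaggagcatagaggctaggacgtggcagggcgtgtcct
Anxa1: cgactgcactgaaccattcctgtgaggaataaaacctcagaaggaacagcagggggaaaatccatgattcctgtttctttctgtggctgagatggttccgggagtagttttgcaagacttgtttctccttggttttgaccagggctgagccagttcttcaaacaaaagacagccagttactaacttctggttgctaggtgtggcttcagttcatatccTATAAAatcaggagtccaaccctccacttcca

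Searched on both strands were the TATA box (TATAAA), the CCAAT box (CCAAT), the GC box (GGGCGG), the AP-1 site (TGANTCA), the cAMP response element (TGACGTCA) and the E-box (CACGTG), of which no 2 matches overlap in the windows shown. The Anxa2 window held a TATA box that begins 17 bases before the start site, GC boxes that begin 24, 48 and 190 bases before it and an AP-1 site that begins 95 bases before it. Of 32851 promoter windows of this length, 12.4% held the TATA box, 32.7% the GC box and 6.75% the AP-1 site, while CCAAT was in 33.8%, the cAMP response element in 1.55% and the E-box in 6.02%. The Anxa1 window held 1 TATA box, which begins 32 bases before the start site, and the Anxa5 window held 0 of the 6 motifs. GC content was 62.4% for Anxa2, 58.8% for Anxa5 and 46.0% for Anxa1, beside a median of 52.4% over all windows. These matches describe the letters only.

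Among the annexin and S100a10 probe sets, Anxa2 had the largest knock-in against wild-type difference in the cerebellum at 4 weeks. Its measured probe set (1419091_a_at) read an intensity of 2863, 2485 and 2442 on the knock-in arrays and 1148, 1223 and 1018 on the wild-type arrays. Every knock-in array lay above every wild-type array. The fitted difference was 1.19 ± 0.15 log2 units (SE), a 2.28-fold higher level in knock-in cerebellum.

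At 11 weeks the cerebellar intensity of Anxa2 was 2476 and 1942 in knock-in and 1749 and 1468 in wild-type mice. The groups again did not overlap, but the difference was 0.45 ± 0.18 log2 units, and the wild-type arrays were higher than at 4 weeks. In forebrain at 4 weeks the 3 knock-in arrays read 1823, 2059 and 2711 and the 3 wild-type arrays 1525, 1529 and 1547, a difference of 0.49 ± 0.15. In forebrain at 11 weeks the values were 2089 and 2207 against 1958 and 1539, a difference of 0.30 ± 0.18. Knock-in arrays thus lay above wild-type arrays in each of the 4 region and age groups. The mean over ages was 0.82 ± 0.12 in cerebellum and 0.40 ± 0.12 in forebrain, 1.76-fold and 1.32-fold.

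**Figure D1:**
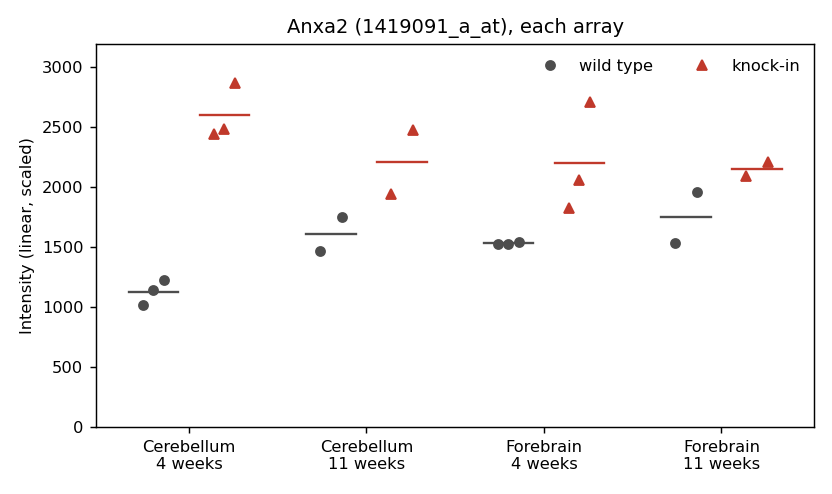
Intensity of the Anxa2 probe set (linear scale, starting at 0) on each of the 20 arrays, by region and age. Circles are wild-type arrays, triangles are knock-in arrays and short lines are group means. The gap is widest in cerebellum at 4 weeks, where wild-type arrays read 1018 to 1223 and knock-in arrays 2442 to 2863.

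In the order of its group means, Anxa2 was highest in knock-in cerebellum at 4 weeks (2596 ± 231, SD, n = 3), followed by knock-in cerebellum at 11 weeks (2209 ± 378, n = 2), knock-in forebrain at 4 weeks (2197 ± 460, n = 3) and knock-in forebrain at 11 weeks (2148 ± 83.5, n = 2). The wild-type groups followed, with forebrain at 11 weeks at 1749 ± 297 (n = 2), cerebellum at 11 weeks at 1608 ± 199 (n = 2), forebrain at 4 weeks at 1533 ± 11.5 (n = 3) and cerebellum at 4 weeks at 1130 ± 104 (n = 3). Neighbours in this order had overlapping arrays except at 2 steps. These were the step from knock-in to wild-type forebrain at 11 weeks and the step down to wild-type cerebellum at 4 weeks, which stood below every other group. The other 2 Anxa2 probe sets (1437691_at and 1437692_x_at) were above the filter limit, the 40th percentile of each array, on 0 of 20 arrays, with highest intensities of 125 and 293, and say nothing on the difference.

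Markers of other cell types give the setting of this difference. In cerebellum at 4 weeks, the summed intensity of 11 of 12 microglia markers was 27870 to 32410 in knock-in and 27540 to 28360 in wild-type mice, that of 8 of 10 endothelial markers 17070 to 21670 against 18060 to 18910, and that of 11 of 11 meningeal and fibroblast markers 25610 to 32570 against 26560 to 30880. Of the probe sets of these 3 lists, 0 of 18, 0 of 10 and 0 of 18 were called by limma (6, 0 and 2 at an unadjusted p under 0.05). Of all 15627 probe sets in this comparison, 0.0512% were called and 2072 had an unadjusted p under 0.05. The sum of 5 of 8 pericyte and smooth muscle markers was higher in knock-in mice without overlap, at 22010 to 24710 against 19330 to 21680, with Myh11, Abcc9 and Tagln below the filter limit (0 of 8 called, 0 at an unadjusted p under 0.05). Granule neuron marker sums were lower without overlap, at 288600 to 301600 against 320400 to 348800 (0 of 10 called, 2 at an unadjusted p under 0.05). Of all single probe sets tested, 11.2% lay wholly above in these knock-in arrays and 7.59% wholly below. Choroid plexus marker sums (5 of 8 genes) spread from 105900 to 205200 in knock-in and from 205200 to 219000 in wild-type mice (0 of 7 called, 0 at an unadjusted p under 0.05). The part of these cell types in the Anxa2 difference was not tested. GAPDH 3' over 5' signal, which reflects RNA integrity, was 0.828 to 0.850 in these knock-in and 0.825 to 0.864 in these wild-type arrays.

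Several marker sums also differed in forebrain. At 4 weeks the microglia sum was 71560 to 78270 in knock-in and 61150 to 68360 in wild-type mice. Of the microglia probe sets 2 of 18 were called higher, beside 7.37% of all probe sets called in either direction. Of all single probe sets, 17.2% lay wholly above in knock-in arrays and 11.5% wholly below. At 11 weeks the microglia sums overlapped, at 62540 to 65600 against 65100 to 66270. The sum of 6 of 8 forebrain neuron markers was lower in knock-in mice at both ages without overlap, at 24050 to 28340 against 38560 to 40530 and at 18550 to 23320 against 40180 to 47120 (0 of 6 probe sets called in the mean over ages, 0 at an unadjusted p under 0.05). The fit takes 1 spread per probe set over all 8 groups, cerebellum included, where the sums of these markers were 3721 to 6884. It thus does not measure the forebrain spread alone. At 11 weeks the sums of astrocyte markers (126000 to 128500 against 153000 to 159700), oligodendrocyte markers (234800 to 257000 against 268700 to 303300) and endothelial markers (17250 to 19080 against 19530 to 20080) were lower in knock-in forebrain without overlap (0 of 19, 0 of 19 and 0 of 10 called by limma, and 5, 3 and 1 at an unadjusted p under 0.05). At this age, with 2 arrays a group, 21.1% of all 15627 probe sets lay wholly below in knock-in forebrain and 26.9% wholly above. Of all probe sets 0.864% were called and 2440 had an unadjusted p under 0.05. At 4 weeks the astrocyte, oligodendrocyte and endothelial sums overlapped. The GAPDH ratio at 4 weeks was 0.827 to 0.890 in knock-in and 0.744 to 0.828 in wild-type forebrain. What these marker differences contribute to the forebrain values of the annexins was not tested.

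The main probe set of S100a10 (1416762_at), the light chain partner of annexin A2, overlapped between the genotypes in each region and age. It read 3224, 2835 and 3140 in knock-in and 2425, 3126 and 2828 in wild-type cerebellum at 4 weeks, and 1709 and 2395 against 2671 and 2185 at 11 weeks. In forebrain it read 3045, 2891 and 3656 against 3467, 2958 and 2477 at 4 weeks, and 2605 and 3428 against 2553 and 2879 at 11 weeks. Knock-in arrays were neither all above nor all below the wild-type arrays. The differences were 0.14 ± 0.17, -0.25 ± 0.20, 0.11 ± 0.17 and 0.14 ± 0.20 log2 units in that order.

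The second S100a10 probe set (1456642_x_at) gave other values. It read 2131, 975 and 1760 in knock-in against 856, 851 and 980 in wild-type forebrain at 4 weeks, then 462 and 556 against 890 and 1833 at 11 weeks. At 11 weeks both knock-in arrays lay below both wild-type arrays. The fitted difference was 0.78 ± 0.35 log2 units at 4 weeks and -1.31 ± 0.43 at 11 weeks. In cerebellum it was -0.31 ± 0.35 at 4 weeks and 0.00 ± 0.43 at 11 weeks (-0.10 and -0.12 under quantile and cyclic loess normalization). After the mean of each region and age was removed, the 2 S100a10 probe sets correlated at r = 0.12 over the 20 arrays, so they did not give 1 level.

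Anxa5, the phosphatidylserine-binding annexin, and Anxa6, the largest annexin, each had a probe set with a higher group mean in knock-in mice in the 4 region and age groups, none of them called. The Anxa5 probe set (1425567_a_at) read 5521, 6975 and 7068 against 5322, 6292 and 5745 in cerebellum at 4 weeks and 6065 and 6175 against 5068 and 4868 at 11 weeks. In forebrain it read 4754, 5024 and 5493 against 3685, 4156 and 5188 at 4 weeks and 4492 and 6270 against 4230 and 3669 at 11 weeks. The arrays overlapped at 4 weeks in both regions and not at 11 weeks. The differences were 0.17 ± 0.15, 0.30 ± 0.18, 0.24 ± 0.15 and 0.43 ± 0.18 log2 units.

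The main Anxa6 probe set (1415818_at) read 4710, 4670 and 5967 against 3827, 3262 and 4533 in cerebellum at 4 weeks and 4452 and 4259 against 3727 and 3196 at 11 weeks. In forebrain it read 4281, 4499 and 3946 against 2453, 3704 and 4083 at 4 weeks and 4479 and 5131 against 3347 and 4144 at 11 weeks. Only the 4-week forebrain groups overlapped. The differences lay close together, at 0.40 ± 0.18, 0.33 ± 0.22, 0.34 ± 0.18 and 0.36 ± 0.22 log2 units. The other 2 Anxa6 probe sets did not follow it. 1429246_a_at was slightly lower in knock-in mice in each group, from -0.03 to -0.20, and 1429247_at ranged from -0.09 to 0.30, with its forebrain values turning to -0.01 and -0.03 under cyclic loess normalization. The 3 probe sets correlated at r between -0.09 and 0.09 over the 20 arrays.

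Anxa7, the annexin first described in chromaffin granule fusion, also split by probe set. 1416137_at read 1613, 1687 and 1603 against 1424, 1371 and 1223 in cerebellum at 4 weeks, without overlap, and 1536 and 1659 against 1796 and 1394 at 11 weeks. In forebrain it read 3010, 2403 and 2540 against 2253, 2335 and 2202 at 4 weeks and 2839 and 3471 against 2513 and 2709 at 11 weeks, without overlap at both ages. The differences were 0.29 ± 0.12, 0.01 ± 0.14, 0.22 ± 0.12 and 0.27 ± 0.14 log2 units, and the second of these fell below 0 under quantile and cyclic loess normalization (-0.02 and -0.03). The main probe set, 1416138_at, differed by -0.03, -0.21, 0.12 and 0.13, and 1438764_at was below 0 in each group, from -0.11 to -0.39.

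**Figure D2:**
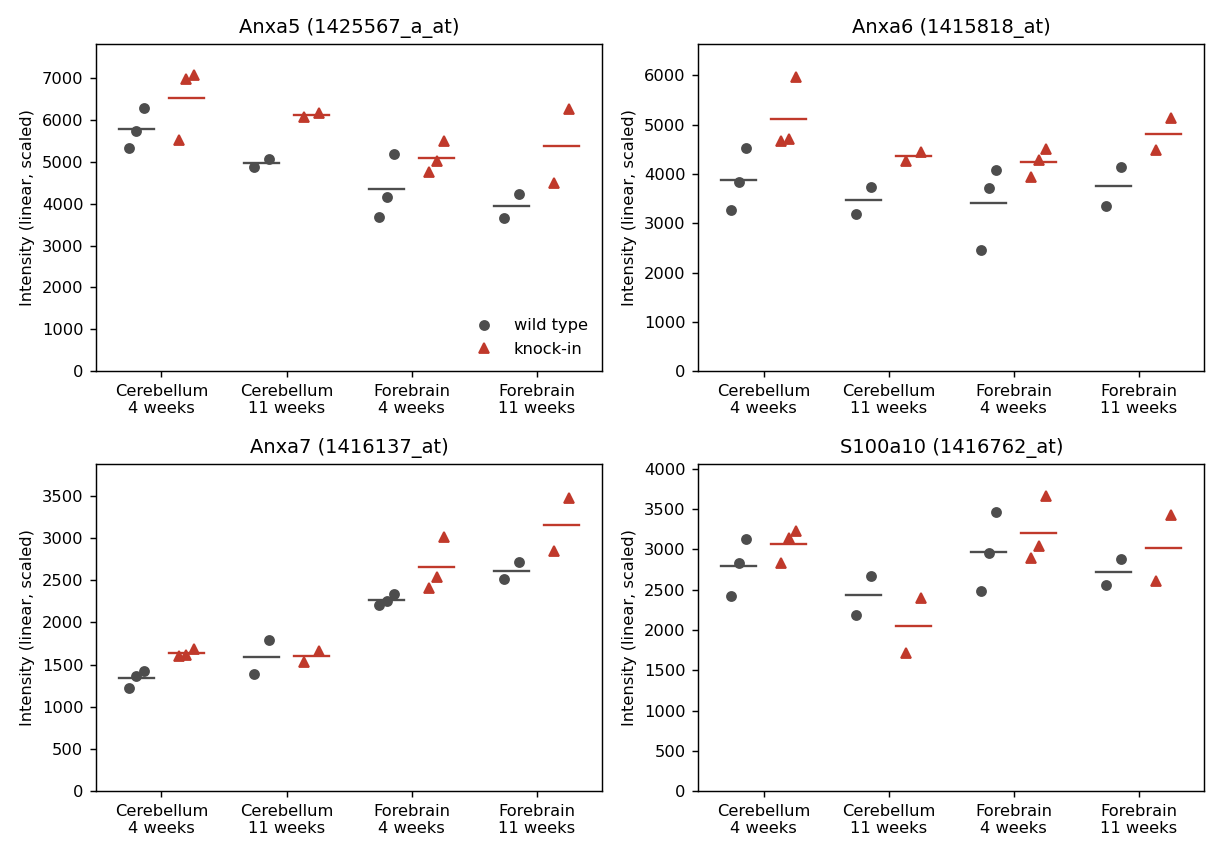
Intensity (linear scale, starting at 0) of 1 probe set each of Anxa5, Anxa6, Anxa7 and S100a10 on each array, by region and age. For Anxa7 this is 1416137_at, not its main probe set 1416138_at. Circles are wild-type arrays, triangles are knock-in arrays and short lines are group means. The Anxa6 group means were higher in knock-in than in wild-type mice in each region and age, while the S100a10 arrays overlapped.

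Anxa3, an annexin of myeloid cells, read 1627, 1389 and 1476 in knock-in and 1233, 1268 and 1360 in wild-type cerebellum at 4 weeks, and 2197, 1986 and 1930 against 1719, 1879 and 1660 in forebrain. These 4-week groups did not overlap, with differences of 0.21 ± 0.12 and 0.22 ± 0.12 log2 units, while the 11-week groups overlapped (0.07 and -0.11). Anxa4, an annexin of secretory epithelia, was close to the filter limit and exceeded it on 3 of 20 arrays. Its differences were 0.10 and 0.34 log2 units at 4 weeks and -0.38 and -0.29 at 11 weeks in cerebellum and forebrain, and under quantile normalization the first turned to -0.09 and the second fell to 0.04. Its second probe set exceeded the limit on 0 arrays. Anxa1 did so on 0 arrays as well, and read 538, 377 and 388 in knock-in against 320, 245 and 317 in wild-type cerebellum at 4 weeks, without overlap. In the other 3 region and age groups its knock-in and wild-type arrays overlapped, and over all 20 arrays it read 245 to 574.

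A filter on dim signals kept 15627 probe sets, 12 of them of these genes. Of the 12, 1 passed an adjusted p of 0.05 (limma; a call) in cerebellum at 4 weeks (Anxa2), where 0.0512% of all probe sets tested did, and 0 in the other single groups, where 0.346% (cerebellum, 11 weeks), 7.37% (forebrain, 4 weeks) and 0.864% (forebrain, 11 weeks) of all probe sets tested were called. In the mean over ages Anxa2 was the 1 called in each region, beside 3.35% of all probe sets in cerebellum and 13.5% in forebrain. In forebrain this was so in only 8 of 19 alternatives to the processing, and at 4 weeks in cerebellum not with the compared arrays alone. Every knock-in array lay above every wild-type array for 4 of the 12 in cerebellum at 4 weeks, 3 at 11 weeks, 3 in forebrain at 4 weeks and 5 at 11 weeks, beside 11.2%, 26.9%, 17.2% and 26.9% of all probe sets tested. The reverse held for 0, 2, 0 and 2 of them, beside 7.59%, 22.4%, 11.5% and 21.1%. Nothing is read from these calls and counts, since the genes were chosen on this contrast.

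Over all 16 probe sets, dim ones included, the median difference in log2 units was 0.15 (cerebellum, 4 weeks), 0.01 (cerebellum, 11 weeks), 0.22 (forebrain, 4 weeks) and 0.12 (forebrain, 11 weeks). The medians over all 15627 probe sets tested were 0.03, 0.02, 0.04 and 0.04. The annexin medians were not stable. Under quantile and cyclic loess normalization they were 0.0887 and 0.0658 in forebrain at 4 weeks, 0.0605 and 0.035 in forebrain at 11 weeks, and -0.0379 and -0.0428 in cerebellum at 11 weeks. Leaving out wild-type or knock-in replicate 2 turned the cerebellar 11-week median to -0.139 or -0.0466, without knock-in replicate 1 it was 0.166, and leaving out knock-in replicate 2 turned the forebrain 11-week median to -0.081. Without knock-in replicate 3 the cerebellar 4-week median was 0.0663. Of the 12 probe sets above the limit, 4 had their difference above 0 in each of the 4 groups (Anxa2, Anxa5, Anxa6 1415818_at and Anxa7 1416137_at) and 2 below 0 in each (Anxa6 1429246_a_at and Anxa7 1438764_at), while 23.2% and 15.7% of all probe sets tested did so.

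**Figure D3:**
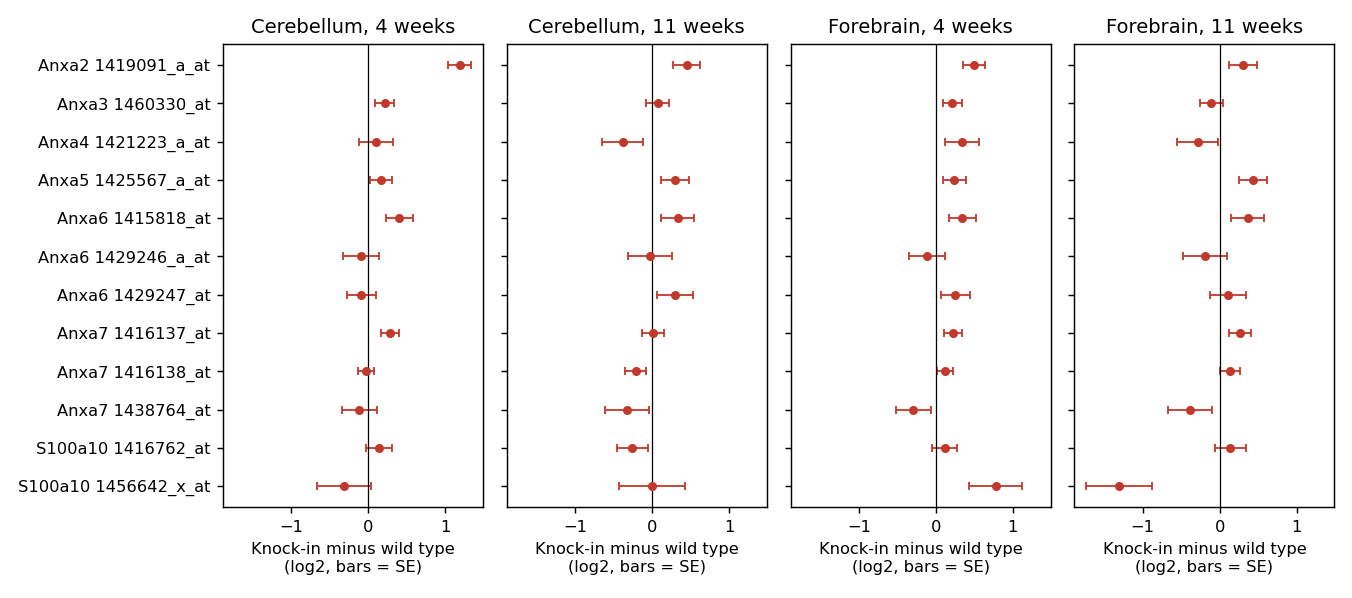
Fitted knock-in minus wild-type difference (log2 scale) of the 12 probe sets above the filter limit, 1 panel per region and age. Points are differences and bars are standard errors. Anxa2 in cerebellum at 4 weeks (1.19) and S100a10 1456642_x_at in forebrain at 11 weeks (-1.31) are the farthest from 0.

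Between the regions of wild-type mice, 5 of the 12 probe sets were called, where 47.9% of all probe sets tested were, so the share of these genes was no higher than the background. This was not the contrast the genes were chosen on, but the wild-type arrays are 1 arm of it. Anxa7 1416137_at was lower in cerebellum, at 1223 to 1796 over the 5 cerebellum arrays (median 1394) and 2202 to 2709 over the 5 forebrain arrays (median 2335), without overlap. The difference was -0.73 ± 0.09 log2 units (limma, adjusted p = 8.04e-06, lower in 5 of 5 arrays). Anxa3 was lower in cerebellum too, at 1198 to 1543 (median 1268) against 1660 to 1989 (median 1719), again without overlap (-0.44 ± 0.10, adjusted p = 0.00152). The main Anxa7 probe set, 1416138_at, differed in the same direction with overlapping arrays (-0.31 ± 0.09, adjusted p = 0.00748).

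Anxa5 was higher in wild-type cerebellum, at 4868 to 6292 (median 5322) against 3669 to 5188 (median 4156), with overlapping arrays (0.38 ± 0.12, limma, adjusted p = 0.0143). Without wild-type forebrain 11 weeks replicate 2 this was 0.33 with an adjusted p of 0.0654. Anxa4 was called higher in cerebellum (0.51 ± 0.17, adjusted p = 0.0229), but it passed the filter only through wild-type cerebellum arrays, so a difference was built into its selection. Its call was lost without any 1 of 6 arrays, with adjusted p up to 0.0864. These were wild-type cerebellum 4 weeks replicate 2 (0.44), wild-type cerebellum 11 weeks replicates 1 and 2 (0.50 and 0.53), wild-type forebrain 4 weeks replicates 2 and 3 (0.43 and 0.44) and wild-type forebrain 11 weeks replicate 1 (0.45).

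Anxa2 was not called between the regions of wild-type mice (-0.28 ± 0.12, limma, adjusted p = 0.0623), though it passed under 60th percentile filtering (adjusted p = 0.0474), quantile normalization (0.0374) and cyclic loess normalization (0.0196), and without wild-type forebrain 11 weeks replicate 2 (-0.36, adjusted p = 0.0350). It passed as well without knock-in forebrain 4 weeks replicate 3, the array with conflicting labels (adjusted p = 0.0338), which enters this comparison only through the estimate of the spread. S100a10 did not pass (-0.12 ± 0.13, adjusted p = 0.462), and the 3 Anxa6 probe sets differed by -0.04 to 0.05. Of the 5 calls 2 were higher in cerebellum, 1 of them Anxa4, and 3 lower, beside 26.6% of all probe sets tested called higher and 21.3% lower. The median over all 16 was -0.20, beside 0.04 over all probe sets tested.

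**Figure D4:**
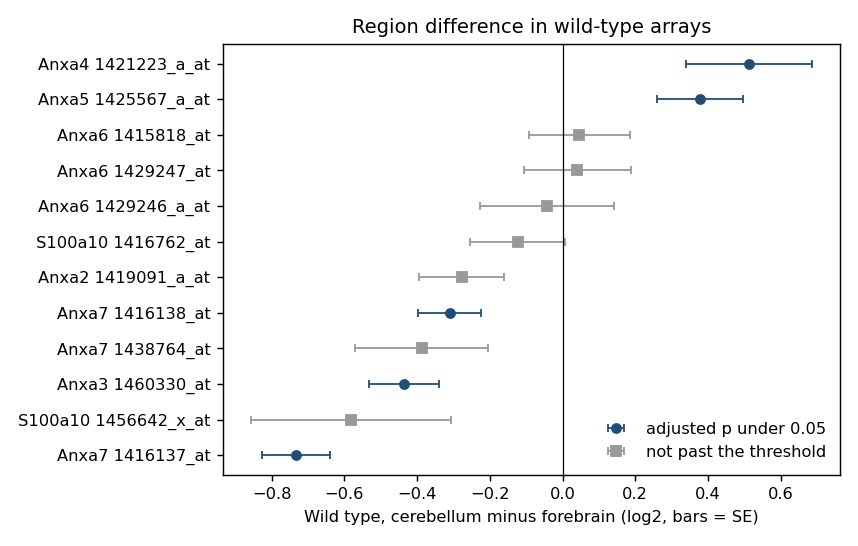
Cerebellum minus forebrain difference in wild-type arrays (log2 scale, mean over ages) for the 12 probe sets above the filter limit. Points are fitted differences, bars are standard errors, and dark circles passed an adjusted p of 0.05. Anxa7 1416137_at lies farthest below 0 at -0.73 and Anxa4, which passed the filter only through wild-type cerebellum arrays, farthest above it at 0.51.

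With age, 0 of the 12 probe sets were called in wild-type cerebellum or forebrain by limma (3 and 2 at an unadjusted p under 0.05), where 0.198% and 0.0064% of all probe sets were called. Of all 15627 probe sets, 1455 and 961 had an unadjusted p under 0.05. Anxa2 in wild-type cerebellum was 1018 to 1223 at 4 weeks and 1468 and 1749 at 11 weeks, without overlap, a difference of 0.50 ± 0.17 log2 units with an adjusted p of 0.301. The same low 4-week arrays enter the genotype difference of Anxa2. Its forebrain difference with age was 0.18 ± 0.17 (adjusted p = 0.940). Anxa7 1416138_at was 0.31 ± 0.12 higher at 11 weeks in cerebellum (adjusted p = 0.416) and 0.32 ± 0.12 in forebrain (adjusted p = 0.740), without overlap of the arrays in each region. The difference between the regions in the change with age was called for 0 of 12 (0 at an unadjusted p under 0.05), beside 0% of all probe sets called and 753 at that unadjusted p. For Anxa2 it was 0.32 ± 0.23 (adjusted p = 0.999).

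The lists of related genes were drawn up with earlier results of these arrays known, so their counts are no independent support. In the mean over ages they are read beside the 3.35% of all probe sets called in cerebellum and the 13.5% called in forebrain. At an unadjusted p under 0.05 (limma) these were 3364 and 4793 of all 15627 probe sets. The other annexins on the array, Anxa8, Anxa9, Anxa10 and Anxa13, exceeded the filter limit on 0 of 20 arrays. Of 15 other S100 genes, 6 (S100a1, S100a5, S100a6, S100a13, S100a16 and S100b) had 8 probe sets above the limit. Knock-in against wild-type differences were called for 0 of these 8 in cerebellum and 0 in forebrain in the mean over ages (limma; 0 and 2 at an unadjusted p under 0.05). The 8 penta-EF-hand and ESCRT genes, listed because annexins A7 and A11 bind penta-EF-hand proteins, had 13 probe sets above the limit. Of these, 0 were called in cerebellum and 0 in forebrain (1 and 1 at an unadjusted p under 0.05).

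Among the partners of annexin A2 and S100a10 and the genes of the plasmin system, 9 of 18 genes had 15 probe sets above the limit. In the mean over ages 0 were called in cerebellum (3 at an unadjusted p under 0.05) and 2 of 15 were lower in knock-in forebrain, a share near the 13.5% of all probe sets called there. Both belong to Kcnk3, the TASK-1 potassium channel, which binds S100a10. Kcnk3 (1425341_at) read 236, 653 and 198 in knock-in and 772, 816 and 849 in wild-type forebrain at 4 weeks, and 533 and 566 against 1029 and 884 at 11 weeks. Each knock-in array lay below each wild-type array of its age, by -1.05 ± 0.22 log2 units (limma, adjusted p = 0.00833). The call held without any 1 array, with adjusted p up to 0.0383. These knock-in readings lay below or within the filter limit of 606 to 775. In cerebellum this probe set, though not called, did not overlap either. It read 4203 to 4426 in knock-in against 5029 to 5592 in wild-type mice at 4 weeks. At 11 weeks it read 4086 and 3748 against 5319 and 4631. The second Kcnk3 probe set (1425342_a_at) read 77.3 to 425 on the 10 forebrain arrays, all below the filter limit, which it passed through cerebellum arrays. In forebrain it differed by -1.02 ± 0.30 (adjusted p = 0.0362), a value that rests on dim signals. The third, 1426058_a_at, was not called (-0.47 ± 0.32, adjusted p = 0.349). The call of 1425342_a_at was lost without any 1 of 7 of the 10 forebrain arrays, with adjusted p of 0.0612 to 0.162, and was kept only without wild-type replicate 2 or knock-in replicate 2 at 4 weeks or knock-in replicate 1 at 11 weeks.

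Receptors and the phospholipase linked to annexin A1 had 6 probe sets of 3 genes above the limit, of 7 genes listed. In the mean over ages 1 was called higher in knock-in cerebellum and 2 in forebrain, all of Egfr, the epidermal growth factor receptor, a kinase that phosphorylates annexin A1. Egfr 1460420_a_at read 3980, 2751 and 4142 in knock-in and 2828, 2465 and 2196 in wild-type cerebellum at 4 weeks, and 2901 and 3095 against 2188 and 1612 at 11 weeks. Only the 4-week arrays overlapped, and the mean difference was 0.59 ± 0.14 log2 units (limma, adjusted p = 0.0321), 0.48 ± 0.14 in forebrain (adjusted p = 0.0332). The cerebellar call was lost without any 1 of 7 of the 10 arrays (adjusted p 0.0556 to 0.126), which are all but knock-in replicate 2 and wild-type replicate 1 at 4 weeks and wild-type replicate 1 at 11 weeks. The forebrain call was lost without knock-in replicate 1 or wild-type replicate 2 at 4 weeks, or knock-in replicate 2 or wild-type replicate 1 at 11 weeks (0.46, 0.42, 0.37 and 0.42, with adjusted p up to 0.155). Egfr 1432647_at was 0.86 ± 0.20 higher in forebrain (limma, adjusted p = 0.0137), and 0.67 with an adjusted p of 0.0770 without wild-type forebrain 11 weeks replicate 1. Its wild-type forebrain arrays read 366 to 759, below or within the filter limit of 606 to 775, and its knock-in ones 788 to 1167. Its readings above 775 were all on knock-in arrays, so a difference may be partly built into its selection. The other 2 Egfr probe sets were not called in the mean over ages. Fpr2, the receptor of annexin A1, was called only in forebrain at 4 weeks (1.05 ± 0.27, adjusted p = 0.0300), at 707, 842 and 655 against 393, 232 and 447, and not without knock-in replicate 1 or 2 or wild-type replicate 2 (1.07, 0.95 and 0.78, with adjusted p up to 0.121). These wild-type readings of Fpr2 all lay below the filter limit.

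Genes of membrane repair, in which annexins form a cap over the wound, had 7 probe sets of 6 genes above the limit, of 9 listed. In the mean over ages 3 were called higher in knock-in cerebellum (Dysf, Cav1 and Otof) and 1 in forebrain (Cav1), that is 3 and 1 of 7, beside 3.35% and 13.5% of all probe sets. Cav1, the caveolin of endothelial and glial caveolae, read 1375, 1574 and 1709 against 1482, 692 and 672 in cerebellum at 4 weeks and 1822 and 1862 against 996 and 922 at 11 weeks. In forebrain it read 1439, 1903 and 1729 against 911, 883 and 898 at 4 weeks and 1707 and 1606 against 1146 and 1012 at 11 weeks. Apart from 1 wild-type cerebellum array at 4 weeks, knock-in and wild-type arrays did not overlap. The mean difference was 0.86 ± 0.17 log2 units in cerebellum (limma, adjusted p = 0.0171) and 0.75 ± 0.17 in forebrain (adjusted p = 0.0125). The forebrain call held without any 1 array, and the cerebellar one was lost without knock-in or wild-type replicate 2 at 11 weeks (0.86 and 0.84, adjusted p = 0.0665 and 0.0618).

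Dysf, which encodes dysferlin, a ferlin that recruits vesicles to membrane wounds, read 571, 417 and 1009 in knock-in and 228, 200 and 257 in wild-type cerebellum at 4 weeks, and 501 and 361 against 237 and 221 at 11 weeks. The groups did not overlap, but all 5 wild-type and 4 of the 5 knock-in arrays lay below the filter limit of 606 to 775. In forebrain Dysf read 731, 1092 and 803 against 562, 494 and 365 at 4 weeks. At 11 weeks it read 525 and 572 against 671 and 534 there. Its readings above 775 were all on knock-in arrays. It thus passed the filter through knock-in arrays, and a difference was partly built into its selection. The cerebellar difference was 1.12 ± 0.20 log2 units (limma, adjusted p = 0.0102) with the offset of 16 added before taking logarithms. With an offset of 64 it was 0.99. The call held without any 1 array, with adjusted p up to 0.0410. Otof, which encodes the ferlin otoferlin, was 0.57 ± 0.12 higher (adjusted p = 0.0244), at 933 to 1281 over the 5 knock-in arrays and 599 to 848 over the 5 wild-type arrays. Its call was lost without knock-in replicate 1 at 4 weeks or without either knock-in array or wild-type replicate 1 at 11 weeks (0.52, 0.57, 0.57 and 0.45, adjusted p up to 0.0918). The list's median difference, with Dysf included, was 0.34 in cerebellum and 0.35 in forebrain, beside 0.02 and 0.04 over all probe sets tested. Nothing is read from these medians, since the list was drawn up with earlier results of these arrays known.

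**Figure D5:**
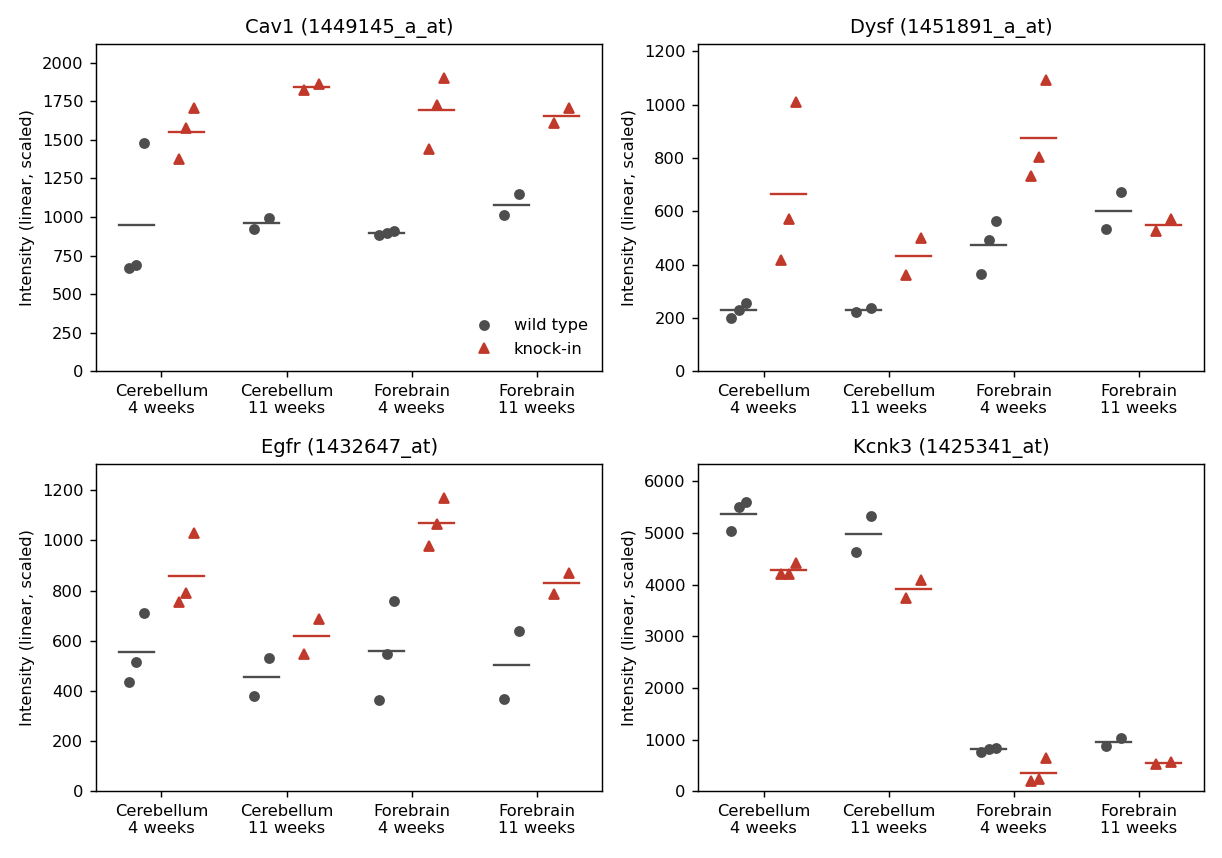
Intensity (linear scale, starting at 0) of 1 probe set each of Cav1, Dysf, Egfr (1432647_at) and Kcnk3 on each array, by region and age. Circles are wild-type arrays, triangles are knock-in arrays and short lines are group means. Cav1 lay between 1375 and 1903 in knock-in arrays, and Kcnk3 was lower in knock-in forebrain, where wild-type arrays read 772 to 1029.

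The glucocorticoid-responsive genes, a list taken because annexin A1 is one of them, had 20 probe sets of 11 genes above the limit. In the mean over ages 0 were called in cerebellum (limma; 4 at an unadjusted p under 0.05), and in forebrain 1 was higher and 2 were lower in knock-in mice, 3 of 20 beside 13.5% of all probe sets, a share near the background. Dusp1, a phosphatase of MAP kinases, read 4530, 6180 and 4617 in knock-in against 8872, 8101 and 7222 in wild-type forebrain at 4 weeks and 4647 and 5391 against 6767 and 7436 at 11 weeks. The groups did not overlap, with a difference of -0.58 ± 0.13 log2 units (adjusted p = 0.0113), and the call held without any 1 array. Nr3c1, the glucocorticoid receptor, was lower on 1 of its probe sets (1421867_at, -0.53 ± 0.13, adjusted p = 0.0152), and its call was lost without knock-in replicate 2 or wild-type replicate 1 at 11 weeks (-0.55 and -0.42, adjusted p = 0.0503 and 0.0827). Per1, a clock gene, was higher (0.35 ± 0.11, adjusted p = 0.0401), with the call lost without any 1 of 7 of the 10 forebrain arrays (adjusted p up to 0.187) and kept only without knock-in or wild-type replicate 3 at 4 weeks or knock-in replicate 1 at 11 weeks.

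The genes whose pattern was most like that of Anxa2 were found by the correlation of log2 deviations from the mean of each region and age, over 20 arrays and among 14410 probe sets of 1 gene. They were Fdft1 (r = 0.93), which makes squalene, Map2k4 (0.88), a kinase of the JNK pathway, Tecpr1 (0.84), Hoxb2 (0.83), Narf (0.83) and Tbc1d10b (0.82). These deviations hold the genotype difference and share the scaling of each array. Other probe sets of the same genes differed in this. Of the other 3 Fdft1 probe sets, 1438919_x_at correlated with Anxa2 at 0.70, 1438322_x_at at -0.22 and 1448130_at at -0.30, the second Map2k4 probe set (1451982_at) at -0.57 and the second Tecpr1 probe set (1423989_at) at -0.16. For S100a10 the 6 most alike were Cct7 (0.79), Ncaph2 (0.77), Rnf128 (0.77), Rpl13a (0.74), Nr1d1 (0.71) and Atp2a1 (0.70). Anxa2 itself correlated at 0.61 with Anxa7 1416137_at, 0.55 with Anxa6 1415818_at, 0.52 with Anxa5, 0.44 with Anxa3 and 0.22 with S100a10 1416762_at. The others were near or below 0, at 0.11 for Anxa6 1429247_at, 0.05 for Anxa7 1416138_at and 0.02 for Anxa4. For S100a10 1456642_x_at, Anxa6 1429246_a_at and Anxa7 1438764_at the values were -0.16, -0.19 and -0.22.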

How the data were processed

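For every array the authors deposited a linear intensity of each probe set. The 2% trimmed means of the deposited arrays, 2500.59 to 2500.75, show scaling to a shared target. Which program summarised the probes is not given in the sources used. Of 22690 probe sets, 64 were controls. The probe annotation names 1 gene for 20380, several for 691 and none for 1555. The genes and lists were chosen with earlier results of these data known.

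Values were fitted as log2(intensity + 16) by lmFit and eBayes (limma 3.58.1 and R 4.3.3, files read by the data.table package at version 1.17.8), as 1 mean per group over all 20 arrays in 8 groups, with 12 residual and 3.45 prior degrees of freedom. Probe sets above the 40th percentile of the array on at least 2 arrays were kept (15627; limit 606 to 775). Differences understate the change of dim probe sets. Adjusted p-values are two-sided, Benjamini-Hochberg over all kept probe sets, with a call under 0.05. Means over ages weight both ages equally, errors are standard errors unless called SD, and the number of arrays limits the precision. The main probe set of a gene has the highest mean. Of each list, up to 4 genes are named, by p among those called in a genotype comparison, and 6 genes by likeness. Alternatives changed the offset, filter, normalization, arrays and probe sets used. The fit was tested on simulated data. Replicate numbers did not pair the arrays.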

Additional observations from a re-analysis of the deposited data

Results flagged for a closer look

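Anxa7 1416138_at, 1 of 3 Anxa7 probe sets, differed in opposite directions in the 2 regions at 11 weeks. In cerebellum both knock-in arrays lay below both wild-type arrays (log2 difference -0.21 ± 0.13), and in forebrain both lay above them (0.13 ± 0.13). Of all probe sets tested, 22.4% lay wholly below in cerebellum and 26.9% wholly above in forebrain at this age. The difference between the regions was not tested, and each group has 2 arrays.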

How the results depend on the processing

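With any 1 array left out, the count of annexin and S100a10 probe sets called between the regions of wild-type mice was 4 to 6 (5 with all arrays), and that called with age was 0 to 0 in each region and 0 to 0 for the difference between regions. The median genotype difference over the 16 probe sets was then 0.0026 to 0.154 in cerebellum and 0.0338 to 0.171 in forebrain over both ages, and 0.0663 to 0.229, -0.139 to 0.166, 0.152 to 0.228 and -0.081 to 0.165 in cerebellum at 4 and 11 weeks and forebrain at 4 and 11 weeks. Calls in the other gene lists numbered 1 to 5 in cerebellum (4 with all arrays) and 3 to 10 in forebrain (8 with all arrays).

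Normalization moved these medians, to 0.0044 (quantile) and -0.0156 (cyclic loess) in cerebellum over both ages, -0.0274 (cyclic loess) in forebrain, 0.0887 (quantile) and 0.0658 (cyclic loess) in forebrain at 4 weeks and 0.035 (cyclic loess) in forebrain at 11 weeks. The cause was not tested. Of all probe sets called, the share higher in knock-in mice was 67.2% in cerebellum and 62% in forebrain over both ages, 53.9% and 47.8% after quantile and 46.1% and 39.3% after cyclic loess normalization. In the single groups it went from 87.5% to 33.3% under both (cerebellum, 4 weeks), from 63% to 50.8% under cyclic loess (cerebellum, 11 weeks), from 67.2% to 49.6% and 42.9% (forebrain, 4 weeks) and from 44.4% to 29.7% and 27.4% (forebrain, 11 weeks).

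Replicate numbers are shared between the groups, but arrays of the same number did not deviate together (r from -0.0992 to 0.0375 between genotypes, with 0 of 6 pairs above 0.1, and from -0.0234 to 0.113 between regions, with 1 of 6 above 0.1). With the replicate number as a block, calls in the other lists were 2 in cerebellum and 5 in forebrain, and 5 annexin and S100a10 probe sets were called between regions. No paired analysis was possible because nothing links arrays of different ages, for the comparisons of age.

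Anxa4 between regions was not called with the compared arrays alone (adjusted p = 0.0648). With the compared arrays alone, genotype calls over all probe sets went from 8 to 0 and from 54 to 0 (cerebellum, 4 and 11 weeks), and from 1151 to 223 and from 135 to 0 (forebrain, 4 and 11 weeks). They went from 2108 to 1301 in forebrain over both ages, and from 31 to 0 with age in wild-type cerebellum. With the replicate block, genotype calls were 155 rather than 524 in cerebellum and 1334 in forebrain over both ages, and 4, 5, 589 and 17 in the single groups in the order above. Without the filter on dim probe sets 307 were called in cerebellum over both ages, 26 at 11 weeks there and 51 in forebrain at 11 weeks, and 86 in cerebellum at 11 weeks with the 60th percentile filter. In cerebellum at 4 weeks 3 were called under quantile and under cyclic loess normalization. With 1 probe set per gene the counts were 13 in cerebellum at 4 weeks, 4596 rather than 7485 between regions and 18 with age in cerebellum. Without that filter the Egfr 1460420_a_at calls were lost (adjusted p = 0.0581 in cerebellum and 0.0568 in forebrain), as were those of Kcnk3 1425342_a_at (0.0624) and Per1 (0.065), and Otof was lost with quantile normalization (0.0523). Fewer than 6 arrays a group and dim signal limit what could be measured for Anxa1 and Anxa4.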
